A study of Mus musculus with 18 samples.

Results

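The genes described here are 37 mouse nucleolar ribosome biogenesis factors, out of 24052 genes in each of the deposited count tables. They were given as a list of symbols and matched to the Entrez gene identifiers of the tables. All 37 were present and all had counts in both experiments. The list was chosen on their fold changes in the comparisons described below (LPS, the compound, both and the knockout). Which of those values chose each member is not recorded, so every comparison counts as used. Calls of members by the fit across all genes are therefore given as a description of that fit, beside the share of all genes called, and are not independent tests of the members. After a filter on low counts 36 members remained in experiment 1, where Polr1b did not pass, and 33 in experiment 2, where Polr1b, Rrp9, Nat10 and Rrp12 did not pass.

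The cells were macrophages grown from C57BL/6 mouse bone marrow in 20 ng/ml M-CSF, and polyadenylated RNA was sequenced near its 3′ end in 18 libraries. Experiment 1 used wild-type cells in 4 groups of 3 libraries. The group called vehicle received the solvent alone and the group called compound received 0.25 mM dimethyl itaconate for 12 h. The group called LPS received the solvent and then 100 ng/ml bacterial lipopolysaccharide (LPS) for 4 h, and the group called compound plus LPS received 0.25 mM dimethyl itaconate for 12 h and then the same LPS for 4 h. Dimethyl itaconate is an ester of itaconate, a metabolite that activated macrophages make. Experiment 2 compared 3 libraries of Irg1-/- cells, which lack the gene of the enzyme that makes itaconate, with 3 of wild-type cells. Both of its groups had been stimulated for 24 h with LPS (100 ng/ml) together with interferon gamma (50 ng/ml), so it holds no unstimulated group. The labels do not say whether the 3 replicates of a group were separate animals or cultures, so the spread between them may be technical.

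Ribosomes are assembled in the nucleolus. RNA polymerase I transcribes the ribosomal RNA precursor there, small nucleolar RNPs (snoRNPs) guide its methylation and pseudouridylation, and assembly factors cut and fold it with ribosomal proteins into small and large subunits. In macrophages this work accompanies growth under M-CSF, and genes of many of these factors are known targets of the Myc transcription factor. The members fall into 5 roles: 2 subunits of RNA polymerase I, 4 abundant nucleolar proteins, 6 proteins of snoRNPs and rRNA modification, 11 small subunit factors and 14 large subunit factors.

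Libraries of experiment 1 held 955718 to 7629669 counts and those of experiment 2 held 3088644 to 5491684. LPS replicate 3 stood apart: it had the lowest depth and the lowest scaling factor (0.576), 7 of the 36 tested members were at 0 in it, and Fbl was at 611 CPM against 83.9 and 106 CPM in the other LPS libraries. CPM of single genes and of the members' sums is the usual depth-normalised count, with library totals scaled by the TMM method of edgeR. Sums of marker genes are in CPM of library totals without that scaling. Where leaving this library out moved a fold change of a member described in full, or a call, both values are given. Acod1, the current symbol of Irg1, lay between 14.9 and 31.5 CPM in the knockout and between 4142 and 4677 CPM in wild type. The 10 macrophage markers summed to 9337 to 12841 CPM in vehicle, 5149 to 6514 CPM with the compound, 3366 to 4330 CPM with LPS, 3561 to 4707 CPM with compound plus LPS and 2814 to 3292 CPM in experiment 2. The 8 neutrophil markers summed to between 149.6 and 518 CPM in experiment 1 and at most 16.5 CPM in experiment 2. T and NK cell markers reached 266 CPM, nearly all of it Il7r, with Nkg7 and Klrb1c at 0 in every library, and B cell markers reached at most 4.14 CPM. Where these sums moved with the groups their values stand beside the results. In bulk RNA fewer cells of a type and less RNA per cell cannot be told apart.

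Promoter windows of RefSeq (GRCm38.p6, the assembly of mm10; 250 bases before and 50 after a transcription start) were matched by symbol for 31 of the 37 members. They were searched on both strands for CACGTG, the E-box that Myc and related factors bind, for TGACNNNGC, the core of the antioxidant response element, and for a motif like that of NF-κB (GGGA and TCC with 3 bases of any kind between them). Each motif was counted on its own, whether or not it overlapped another. CACGTG was found in windows of 6 members (19.4% of 31), against 8.09% of the 27025 genes with a window. TGACNNNGC was found in none of the 31 members, against 14.0% of genes, and the NF-κB-like motif in 3 (9.68%), against 5.21% of genes. A match is a description of the letters in the window, and nothing follows from it about binding. The E-box of each of the 6 members is shown because these are the windows with the motif. Mdn1 and Wdr43 are among the members described in full below, and the other sites were added after the search. They are written 5′ to 3′ on the gene's strand, with the E-box in capitals, and 5 of the 6 lie just past the annotated start.
Mdn1 (chr4:32657145-32657168, plus strand): gaattccttcacCACGTGtgtgtc
Wdr43 (chr17:71616220-71616249, plus strand): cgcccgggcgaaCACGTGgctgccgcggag
Nop2 (chr6:125131811-125131840, plus strand): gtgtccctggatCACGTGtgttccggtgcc
Utp20 (chr10:88826765-88826789, minus strand): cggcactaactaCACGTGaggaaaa
Pes1 (chr11:3963965-3963994, plus strand): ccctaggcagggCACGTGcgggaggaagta
Tsr1 (chr11:74898092-74898121, plus strand): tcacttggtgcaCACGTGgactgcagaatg
Positions are counted from the transcription start of the window, which for Mdn1 and Wdr43 differs from the gene bounds given below. The first base of the motif lies at 39 in Mdn1, 18 in Wdr43, 38 in Utp20, 3 in Pes1 and 25 in Tsr1. In Nop2 it lies 60 bases before the start.
Another feature that the list did not use is the small nucleolar RNA genes that lie within the bounds of 7 members (18.9%), against 1.77% of the 20519 protein-coding genes of the tables. The hosts were Ncl, Nop56, Nop58, Dkc1, Wdr43, Tsr1 and Gnl3, with 19 such genes in all, and Nop56 held 5 of them. Some members share bounds with a neighbour: 10 of the 37 overlap another protein-coding gene, among them Dkc1 (with Mpp1), Wdr12 (with Carf), Gnl3 (with Glt8d1) and Ftsj3 (with Ddx42). The strand setting of the counting is not given in the sources used here, so reads of such neighbours cannot be told apart from theirs.

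**Figure D1:**
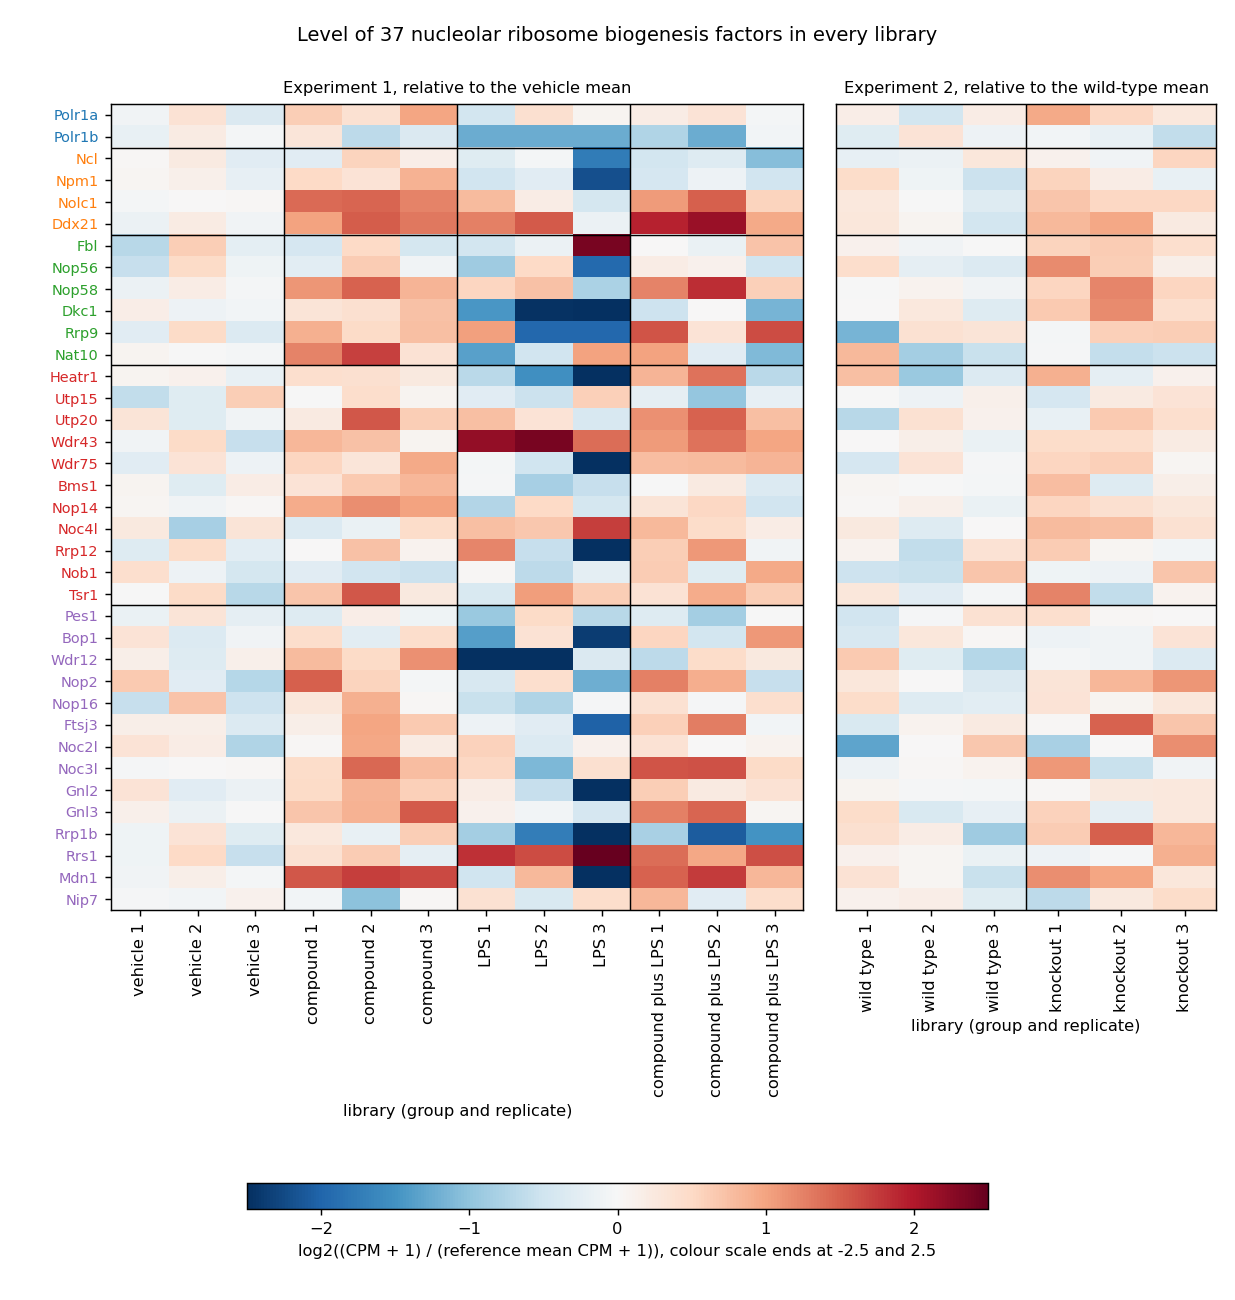
Level of each of the 37 members (rows, coloured and ruled by role) in each library (columns), as log2((CPM + 1)/(reference mean CPM + 1)) with the vehicle mean as reference in experiment 1 and the wild-type mean in experiment 2. The compound columns are mostly red, the LPS columns mixed with 7 tested members at 0 in LPS replicate 3, and the knockout columns mostly pale red.

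Summed over the members, levels were 2027 ± 293 CPM in vehicle, 2953 ± 374 with the compound, 2341 ± 299.6 with LPS and 2464 ± 399 with compound plus LPS (SD, n = 3). Ncl and Npm1 hold a large share of these sums, and without them the sums were 1053 ± 152, 1699 ± 247, 1711 ± 60.0 and 1765 ± 266 CPM. The LPS sum over all members was lowest in replicate 3 (2018 CPM, against 2394 and 2609.8 CPM in replicates 1 and 2). Without Ncl and Npm1 it was highest there (1762 CPM, against 1645 and 1727 CPM), with Fbl at 611 and Rrs1 at 302 CPM. Wdr43 was at 585, 657 and 336 CPM in the LPS libraries. A few members thus weigh heavily in the LPS sums, and the members' median log2 fold change with LPS was -0.11. In experiment 2 the sums over all members were 1151 ± 70.0 CPM in wild type and 1488 ± 63.9 in the knockout. The lowest compound library (2586 CPM) lay above the highest vehicle library (2325 CPM), and the lowest knockout library (1442 CPM) lay above the highest wild-type library (1231 CPM).

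The compound alone went with higher levels of most members. Of 36 tested, 32 had a fold change above 0 and 4 below 0 (Fbl, Nob1, Pes1 and Nip7). Their median log2 fold change was 0.61, against -0.05 over all genes tested. Nolc1 and Mdn1 were called higher (edgeR's quasi-likelihood test, Benjamini-Hochberg adjusted p under 0.05 over all genes) and no member was called lower, where 1.33% of all genes were called higher and 1.51% lower. For 17 members all 3 compound libraries lay above all 3 vehicle libraries, and for none below, against 14.6% and 16.0% of genes. Since the members were chosen on this comparison too, nothing is read from these counts.

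Among the abundant nucleolar proteins, Nolc1, a chaperone of snoRNPs, was at 36.3, 37.8 and 38.0 CPM in vehicle and 102, 105 and 90.1 CPM with the compound (log2 1.40 ± 0.33). Here and below, ± after a log2 fold change or a difference of fold changes gives a standard error (SE) of the fit, not an SD between libraries. Every compound library lay far above every vehicle library, and the vehicle libraries lay close together. Ddx21, an RNA helicase of rRNA transcription and processing, was at 40.3, 51.8 and 41.9 CPM and 91.2, 129 and 112 CPM (log2 1.32 ± 0.38), again without overlap. Ncl (nucleolin, chromosome 1, 86344719 to 86359455), a major RNA-binding protein of the nucleolus, was at 581, 659.8 and 464 CPM in vehicle and 467, 834 and 639.6 CPM with the compound (log2 0.19 ± 0.37). Its groups overlapped. Npm1 (nucleophosmin, chromosome 11, 33152498 to 33164142), a scaffold of the nucleolus, was at 419.7, 445 and 352 CPM and 569, 515 and 737 CPM (log2 0.58 ± 0.37), with every compound library above every vehicle library.

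In the snoRNP group, Nop58 (chromosome 1, 59684961 to 59711510), a core protein of the box C/D particles that methylate rRNA, was at 74.2, 93.6 and 79.4 CPM in vehicle and 178, 231 and 149 CPM with the compound (log2 1.18 ± 0.38). The groups did not overlap. Fbl (fibrillarin, chromosome 7, 28168893 to 28179269), the methyltransferase of the same particles, was at 71.4, 179 and 98.3 CPM and 87.2, 166 and 85.5 CPM (log2 -0.04 ± 0.57). Vehicle replicate 2 was the highest of these Fbl libraries. Nat10, which acetylates small-subunit rRNA, had a log2 fold change of 1.33 ± 0.63, Rrp9 of the U3 snoRNP 0.96 ± 0.76, Dkc1, the pseudouridine synthase of box H/ACA particles, 0.52 ± 0.43, and Nop56, the partner of Nop58, 0.17 ± 0.45. Of the RNA polymerase I subunits, Polr1a (chromosome 6, 71909053 to 71979435), the largest, was at 9.63, 13.6 and 7.86 CPM in vehicle and 16.5, 13.9 and 21.6 CPM with the compound (log2 0.76 ± 0.39), without overlap. Polr1b, the other catalytic subunit, was at 1.07, 1.70 and 1.28 CPM and 1.89, 0.496 and 0.840 CPM, too low to be tested.

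Of the 11 small subunit factors 10 were above 0. Nop14 (chromosome 5, 34638536 to 34660148), part of the processome that folds the small-subunit precursor, was at 56.4, 51.1 and 55.8 CPM in vehicle and 105, 123 and 109.6 CPM with the compound (log2 1.04 ± 0.34), so that the groups were well apart. Wdr43 (chromosome 17, 71616178 to 71659031), an early-binding processome protein, was at 119, 175 and 84.5 CPM and 225, 212 and 132 CPM (log2 0.59 ± 0.34), with overlap. The member with the lowest change was Nob1 (chromosome 8, 107412489 to 107425038), the endonuclease that makes the final cut of small-subunit rRNA, at 17.9, 11.9 and 9.30 CPM in vehicle and 10.6, 9.10 and 8.71 CPM with the compound (log2 -0.47 ± 0.42). Tsr1, a late assembly factor, had a log2 fold change of 1.05 ± 0.51 and Utp20 of 0.93 ± 0.39, both with overlapping groups.

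Of the 14 large subunit factors 12 were above 0. Mdn1 (chromosome 4, 32657114 to 32775217), the giant ATPase that pulls assembly factors off the large-subunit precursor, had the highest fold change of all members. It was at 15.8, 18.7 and 16.2 CPM in vehicle and 51.6, 58.2 and 54.9 CPM with the compound (log2 1.70 ± 0.45), and each group was tight. Gnl3 (nucleostemin), a nucleolar GTPase, was at 37.6, 31.0 and 34.2 CPM and 55.9, 63.7 and 101 CPM (log2 1.10 ± 0.36). Gnl2 (chromosome 4, 125029989 to 125055382), a related GTPase of large-subunit export, was at 100.2, 64.3 and 70.6 CPM and 109, 141 and 119 CPM (log2 0.65 ± 0.45). For both GTPases the compound libraries all lay above the vehicle libraries. Noc2l (chromosome 4, 156234655 to 156247616), which accompanies early large-subunit precursors, was at 78.9, 70.8 and 36.2 CPM and 63.6, 123 and 71.8 CPM (log2 0.47 ± 0.36), with overlap.

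**Figure D2:**
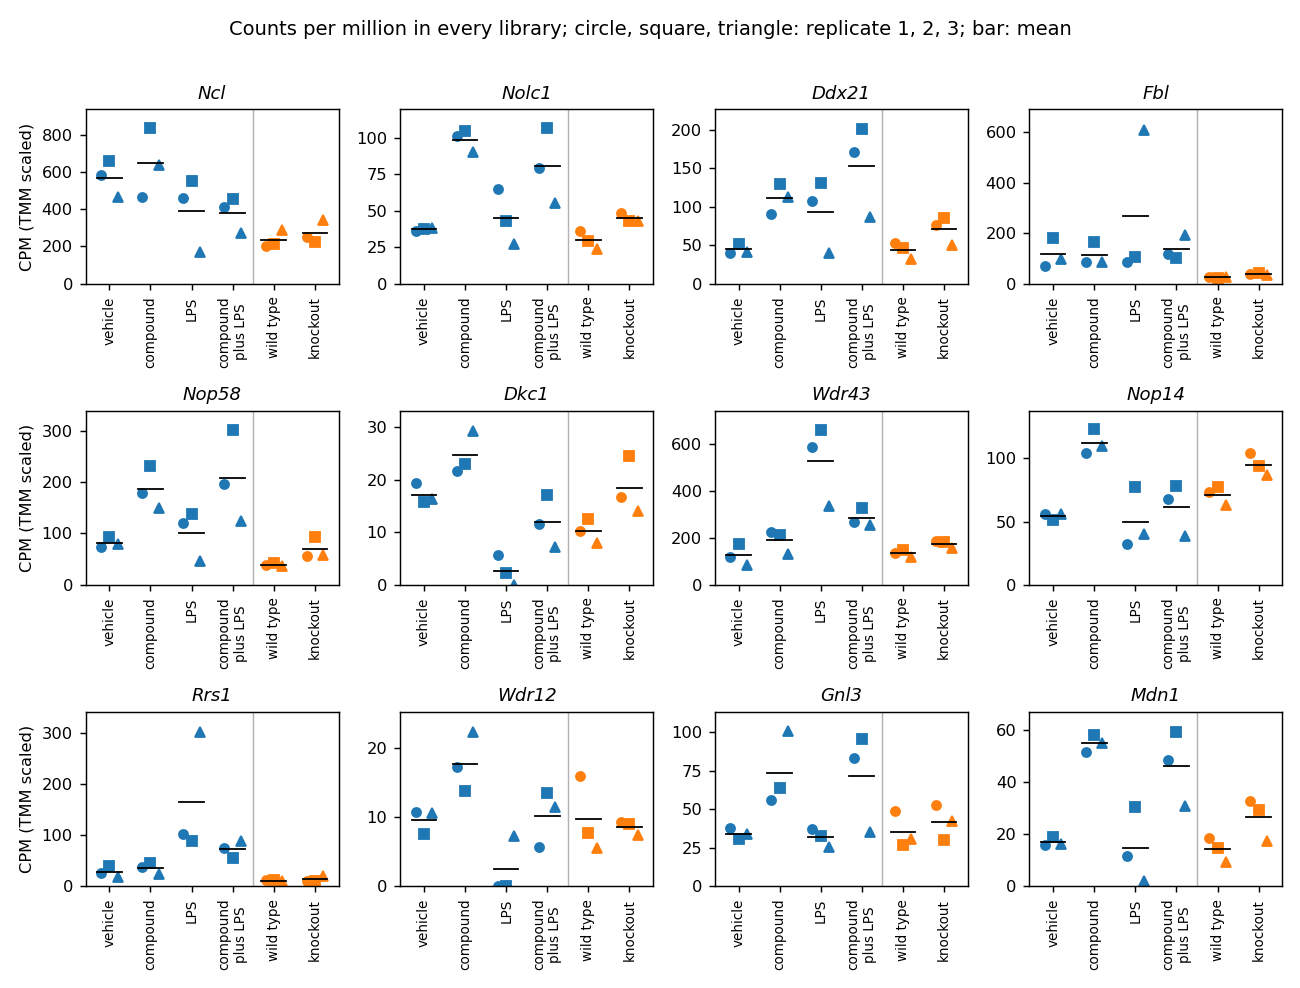
TMM-scaled CPM of 12 members in every library (y axes start at 0 and differ between genes), blue for experiment 1 and orange for experiment 2, with a symbol per replicate and a bar at the mean. Nolc1, Nop14 and Mdn1 show compound libraries apart from vehicle, Wdr43 and Rrs1 show high LPS libraries, and the single high Fbl point is LPS replicate 3 at 611 CPM.

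The call in this comparison was sensitive to single libraries. Without LPS replicate 3, which is not in the comparison but adds to the shared spread, 6 members were called higher (Nolc1, Ddx21, Nop58, Nop14, Gnl3 and Mdn1), where 4.27% of genes were called higher and 3.28% lower. With only the 2 compared groups fitted there were 8, against 5.40% of genes higher and 4.42% lower. The count was 0 without any one of the vehicle or compound libraries or compound plus LPS replicate 1, and 1 without compound plus LPS replicate 2 or 3. All genes called higher numbered between 61 of 10483 and 90 of 10595 where it was 0. They numbered 113 of 10664 and 118 of 10669 where it was 1. The fold change of Nolc1 stayed between 1.20 and 1.47 and that of Mdn1 between 1.51 and 1.79 over the 19 alternatives run.

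A list of 143 other ribosome biogenesis factors, drawn up without the members, gives the rest of the pathway, and its genes were tested. This list too was drawn up with earlier results of these data known. Its counts and adjusted p-values, here and below, are therefore not independent of those results. Of 141 tested, 95 were above 0 with a median log2 fold change of 0.27, and 1 rose and none fell. Pum3, a nucleolar large-subunit factor, rose from 46.6, 38.5 and 30.5 CPM to 87.2, 105 and 77.6 CPM (log2 1.22 ± 0.29, adjusted p = 0.028 by edgeR), higher in 3 of 3 same-numbered pairs. The count of other factors called higher was 8 and lower 2 without LPS replicate 3, and none was called higher when any one vehicle library, compound replicate 2 or 3, or compound plus LPS replicate 1 was left out. The 72 ribosomal protein genes tested had a median of -0.27, with 8 above 0. Myc itself was at 6.62 ± 2.62 CPM with the compound and 4.64 ± 2.78 CPM in vehicle (SD, n = 3; log2 0.59 ± 0.54, adjusted p = 0.71 by edgeR), a difference within the spread. Proliferation markers, of which none of 19 tested was called, summed to 384 ± 129 CPM with the compound and 423 ± 62.7 CPM in vehicle (SD, n = 3). Macrophage markers (5149 to 6514 CPM with the compound, 9337 to 12841 CPM in vehicle), neutrophil markers (179 to 320.4 CPM, 351 to 518 CPM) and stromal markers (23.0 to 30.1 CPM, 41.8 to 73.6 CPM) were lower with the compound without overlap, and their part in the members' values was not tested.

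With LPS alone the members lay on both sides of vehicle. Of 36 tested, 15 were above 0 and 21 below, with a median log2 fold change of -0.11 against -0.24 over all genes. Leaving out LPS replicate 3 gave 18 above 0 and 18 below, with a median of -0.0033. Ddx21, Wdr43 and Rrs1 were called higher and Dkc1 and Wdr12 lower, in a comparison that called 16.0% of genes higher and 18.4% lower. Groups did not overlap for 3 members upward and 5 downward, against 16.6% and 27.4% of genes. Scaling matters here: with library totals alone the median of all genes moves to -1.17 and that of the members to -1.07, and 2 members are called higher and 17 lower, where 8.29% of genes are called higher and 48.1% lower. Relative to the median of all genes, the members' median was 0.13 with TMM and 0.10 with totals alone.

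Rrs1 (chromosome 1, 9545408 to 9547455), which helps bring the small ribonucleoprotein of 5S rRNA into the large subunit, had the highest fold change. It was at 25.9, 39.8 and 18.6 CPM in vehicle and 102, 89.4 and 302 CPM with LPS (log2 2.53 ± 0.45). The highest library was LPS replicate 3, and without it the log2 fold change was 1.82 ± 0.34. Wdr43 was at 585, 657 and 336 CPM with LPS (log2 2.07 ± 0.35), each library far above the highest vehicle library at 175 CPM (2.33 ± 0.31 without LPS replicate 3). Ddx21 was at 108, 131 and 40.0 CPM (log2 1.10 ± 0.39), and its LPS replicate 3 lay just below the lowest vehicle library (1.46 ± 0.31 without it). These 3 members kept a positive fold change under every one of the 19 alternatives, although for Ddx21 it was as low as 0.20.

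Wdr12 (chromosome 1, 60071361 to 60098500), which forms the PeBoW complex with Pes1 and Bop1 in large-subunit rRNA processing, had the lowest fold change. Its levels were 10.7, 7.49 and 10.6 CPM in vehicle and 0, 0 and 7.27 CPM with LPS (log2 -3.39 ± 0.98). Only LPS replicate 3 held counts, 4 in all, so without that library the group was at least 16.3-fold lower than vehicle, taking a floor of 3 counts over the group. Its complex partners did not share the call: Pes1 had a log2 fold change of -0.22 ± 0.39 and Bop1 of -0.74 ± 0.79. Dkc1 was at 19.4, 15.7 and 16.4 CPM in vehicle and 5.64, 2.25 and 0 CPM with LPS (log2 -2.29 ± 0.55), without overlap and at 0 in the shallowest library (-1.99 ± 0.49 without it). Rrp1b, a large-subunit factor of the nucleolus, and Heatr1, an early processome protein, had log2 fold changes of -1.61 ± 0.64 and -1.39 ± 0.62 (-1.30 ± 0.59 and -1.08 ± 0.57 without LPS replicate 3), with every LPS library below every vehicle library but no call.

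Ncl was at 458, 549 and 169 CPM with LPS (log2 -0.53 ± 0.38) and Npm1 at 291, 334 and 87.3 CPM (log2 -0.75 ± 0.37). Their lowest values were again in LPS replicate 3, and without it the log2 fold changes were -0.14 ± 0.30 and -0.34 ± 0.26. Nop58 was at 120.0, 138 and 47.3 CPM (log2 0.34 ± 0.38, 0.68 ± 0.31 without LPS replicate 3) and Fbl at 83.9, 106 and 611 CPM (log2 1.17 ± 0.58, -0.26 ± 0.38 without it). Nop14 was at 32.5, 77.0 and 40.0 CPM (log2 -0.12 ± 0.35), Noc2l at 93.2, 48.9 and 67.3 CPM (log2 0.18 ± 0.37) and Gnl2 at 89.2, 52.3 and 7.27 CPM (log2 -0.57 ± 0.46, -0.10 ± 0.30 without LPS replicate 3). All of these overlapped with vehicle except Npm1. Polr1a was at 7.30, 14.1 and 10.9 CPM (log2 0.04 ± 0.44). Polr1b had no count in any LPS library, against 24 counts in vehicle, which makes it at least 2.20-fold lower on the same floor.

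Without LPS replicate 3 the same 3 members were called higher and the same 2 lower, where 18.3% of genes were called higher and 19.6% lower. Without LPS replicate 1 there were 4 lower (Dkc1, Rrp9, Heatr1 and Rrp1b) and 3 higher (Fbl, Wdr43 and Rrs1). In that fit 2027 of 10619 genes were called lower and 1539 higher. Wdr43, Rrs1 and Dkc1 were called when any one of the 12 libraries was left out. Wdr12 lost its call without LPS replicate 1, and Ddx21 lost it without any one vehicle library, LPS replicate 1 or 2, compound replicate 3 or compound plus LPS replicate 1. Markers of proliferating cells moved with LPS: 10 of the 19 tested were called lower with a median of -2.38, and their summed level was 423 ± 62.7 CPM in vehicle and 184 ± 47.6 CPM with LPS (SD, n = 3). On unscaled totals, macrophage markers were also lower with LPS (3366 to 4330 CPM, against 9337 to 12841 CPM in vehicle). So were neutrophil markers (149.6 to 289.8 CPM, against 351 to 518 CPM) and T and NK cell markers (0 to 42.3 CPM, against 161 to 223 CPM), all without overlap. On TMM-scaled totals these differences are smaller, and the neutrophil and proliferation sums overlap between LPS and vehicle. The part of these markers in the members' values was not tested.

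Of the 141 other factors tested, 74 were above 0 with LPS, and 12 rose and 7 fell, with a median of 0.03. The 3 largest rises that held in all same-numbered pairs were those of Rcl1 (log2 1.95 ± 0.46, adjusted p = 0.0032), Sdad1 (log2 1.76 ± 0.44, adjusted p = 0.0052) and Eif6 (log2 1.73 ± 0.35, adjusted p = 0.00094), all by edgeR. Eif6 keeps large subunits from joining small ones too early, and it was at 32.6, 20.1 and 25.8 CPM in vehicle and 124, 83.8 and 49.1 CPM with LPS. The RNA exosome trims rRNA precursors, and 2 of its subunits were among the largest falls. Exosc5 had 98 counts in vehicle and 1 with LPS, a ratio of 0.0371 (95% exact counting interval 0.000931 to 0.212, adjusted p = 0.0042 by edgeR), and Exosc6 had 116 and 2 counts, a ratio of 0.0628 (0.00751 to 0.232, adjusted p = 0.0027). Tsr3, which modifies small-subunit rRNA, fell from 6.48 ± 2.21 to 0.553 ± 0.957 CPM (SD, n = 3; log2 -2.89 ± 0.87, adjusted p = 0.015 by edgeR). The count of rises was 21 without LPS replicate 3, 7 without LPS replicate 1 and 6 without vehicle replicate 3, and that of falls 12 without LPS replicate 1 or 2. With library totals alone no other factor was called higher and 55 lower.

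Genes of the Myc network moved in both directions with LPS. Of 7 tested, Max, the partner of Myc (log2 2.30 ± 0.30, adjusted p = 1e-05), and Mxd1, which competes with Myc for Max (log2 4.46 ± 0.38, adjusted p = 6e-08) rose, and the related repressors Mnt (log2 -4.94 ± 0.59, adjusted p = 4.2e-06), Mxd4 (log2 -4.18 ± 0.59, adjusted p = 2.8e-05) and Mxi1 (log2 -2.70 ± 0.42, adjusted p = 7.1e-05) fell, all by edgeR. Myc was at 9.08 ± 5.17 CPM with LPS (SD, n = 3; log2 1.14 ± 0.58, adjusted p = 0.14 by edgeR), within its spread.

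In cells given the compound before LPS, most members were higher than with LPS alone. Of 36 tested, 28 were above 0 and 8 below, with a median log2 fold change of 0.62 against 0.13 over all genes. Leaving out LPS replicate 3 gave 27 above 0 and 9 below, with a median of 0.53. Dkc1, Heatr1, Wdr12, Gnl3 and Mdn1 were called higher and no member lower, where 8.38% of all genes were called higher and 7.53% lower. Groups did not overlap for 6 members upward and 2 downward, against 18.9% and 10.7% of genes. This comparison shares the LPS libraries with that of LPS against vehicle, so a low value in LPS enters both.

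Wdr12 was at 5.69, 13.5 and 11.5 CPM with compound plus LPS, against 0, 0 and 7.27 CPM with LPS (log2 3.45 ± 0.99), and without LPS replicate 3 it was at least 15.2-fold higher. Dkc1 was at 11.6, 17.2 and 7.15 CPM (log2 1.76 ± 0.55), every library above the highest LPS library at 5.64 CPM (1.48 ± 0.49 without LPS replicate 3). Heatr1 was at 5.97, 2.81 and 0 CPM with LPS and 18.8, 27.3 and 5.91 CPM with compound plus LPS (log2 2.18 ± 0.62, 1.89 ± 0.57 without LPS replicate 3). Its compound plus LPS replicate 3 lay within the LPS range. Mdn1 was at 11.6, 30.4 and 1.82 CPM and 48.5, 59.2 and 30.8 CPM (log2 1.51 ± 0.48, 1.17 ± 0.38 without that library), and the groups were apart by a small margin. Gnl3 was at 37.1, 32.6 and 25.5 CPM and 83.6, 95.9 and 35.5 CPM (log2 1.14 ± 0.38, 1.01 ± 0.38 without it), with overlap at compound plus LPS replicate 3.

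Of the 3 members called higher with LPS, Rrs1 and Wdr43 lay lower when the compound had been given. Rrs1 was at 75.2, 56.1 and 88.3 CPM (log2 -1.13 ± 0.43 against LPS), the lowest change of all members, and Wdr43 at 267, 327 and 253 CPM (log2 -0.90 ± 0.34). Every compound plus LPS library of both genes lay below every LPS library and above every vehicle library, and neither was called. Without LPS replicate 3, Wdr43 was called lower (log2 -1.16 ± 0.30), and Rrs1 was at -0.41 ± 0.34. Ddx21 was at 172, 202 and 87.4 CPM (log2 0.69 ± 0.38, 0.35 ± 0.32 without LPS replicate 3), with the highest value of any library in compound plus LPS replicate 2.

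Among the other members with full values, Ncl was at 411, 452 and 269.7 CPM (log2 -0.06 ± 0.38) and Npm1 at 301, 374 and 290.2 CPM (log2 0.42 ± 0.37). When LPS replicate 3 was left out these were -0.43 ± 0.29 and 0.02 ± 0.26. Nop58 was at 197, 301 and 124 CPM (log2 0.99 ± 0.38, 0.66 ± 0.32 without LPS replicate 3), Fbl at 117, 104 and 192 CPM (log2 -0.92 ± 0.58, 0.52 ± 0.39 without it) and Nop14 at 67.9, 78.2 and 38.6 CPM (log2 0.29 ± 0.35). All of these overlapped with LPS. Gnl2 was at 121, 91.3 and 101 CPM (log2 0.98 ± 0.46, 0.53 ± 0.30 without LPS replicate 3), above every LPS library. Noc2l was at 80.3, 62.2 and 65.9 CPM (log2 -0.01 ± 0.37), Polr1a at 12.0, 13.5 and 9.95 CPM (log2 0.16 ± 0.44) and Polr1b at 0.393, 0 and 1.24 CPM. The first pair overlapped with LPS, where Polr1b had no count.

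Without LPS replicate 3 the members called higher were Dkc1, Heatr1, Wdr75, Wdr12 and Mdn1, and Wdr43 was called lower, against 9.27% and 9.06% of genes. Same-numbered libraries of these 2 groups deviated together (correlations 0.132, 0.121 and 0.210), and with the replicate number as a block Nop58, Heatr1, Wdr12, Ftsj3 and Mdn1 were called higher and Wdr43 lower, against 7.64% and 6.59% of genes. With only the 2 groups fitted no member was called, against 3.18% and 4.43% of genes. The count called higher was 0 without compound plus LPS replicate 2 and 1 without compound plus LPS replicate 1. It was 2 without LPS replicate 2, any one compound library, vehicle replicate 1 or vehicle replicate 3, and 8 without LPS replicate 1 (Nolc1, Dkc1, Rrp9, Heatr1, Wdr75, Ftsj3, Noc3l and Gnl2). In the same order, all genes called higher numbered 563 of 10664, 499 of 10595, between 711 of 10575 and 877 of 10610, and 1106 of 10619. Rrs1 was called lower without LPS replicate 2. Heatr1 kept its call most often, in 9 of the 12 fits that left out a library, and Gnl3 in 1 of 12. Proliferation markers summed to 304 ± 27.9 CPM with compound plus LPS and 184 ± 47.6 CPM with LPS (SD, n = 3), without overlap, and their part was not tested. Macrophage, neutrophil and T and NK cell markers overlapped between these groups.

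Of 141 other factors tested, 91 were above 0 against LPS, with a median of 0.21, and 8 rose and 2 fell. Exosc5 and Exosc6, low with LPS, had 35 and 67 counts with compound plus LPS, ratios of 16.2 (95% exact counting interval 2.72 to 656) and 15.5 (4.12 to 130.4) to LPS, with adjusted p = 0.032 and 0.0056 by edgeR. Tex10, of a complex that processes the large-subunit precursor, rose (log2 2.01 ± 0.49, adjusted p = 0.0098 by edgeR). The falls were those of Tgs1, which caps snoRNAs (log2 -1.41 ± 0.37, adjusted p = 0.016), and Utp3, a processome protein (log2 -1.38 ± 0.31, adjusted p = 0.0056), both by edgeR. Utp3 was at 339, 299.7 and 155 CPM with LPS and 101, 125 and 81.2 CPM with compound plus LPS, so the groups did not overlap. The count of rises was 4 without compound plus LPS replicate 1, 5 without compound plus LPS replicate 2 and 15 without LPS replicate 1. That of falls was 1 without compound plus LPS replicate 2 or 3 and 4 without LPS replicate 1, and with library totals alone the counts were 10 and 1. Myc was at 29.0 ± 14.0 CPM with compound plus LPS and 9.08 ± 5.17 CPM with LPS (SD, n = 3). Its log2 fold change was 1.58 ± 0.55 (adjusted p = 0.061 by edgeR), without overlap but past no threshold. Of its network, Max (log2 -1.32 ± 0.29, adjusted p = 0.0046) and Mxd1 (log2 -2.53 ± 0.34, adjusted p = 8.7e-05) were called lower. Mnt was called higher (log2 2.33 ± 0.60, adjusted p = 0.013), all by edgeR, and Mxd4, Mxi1 and Mlx were not called.

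**Figure D3:**
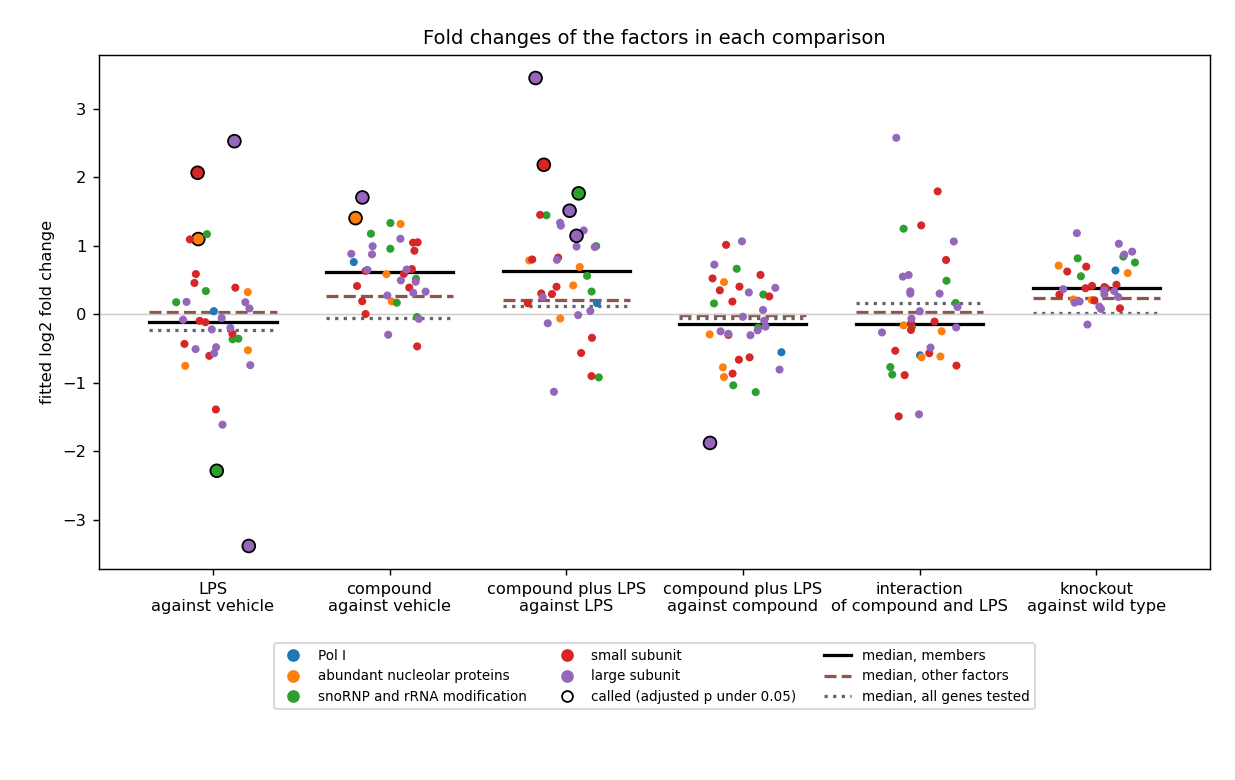
Fitted log2 fold change of each tested member (points, coloured by role, sideways scatter arbitrary) in the 6 comparisons, where the interaction is a difference of 2 log2 fold changes. Lines are medians of the members (solid), the other factors (dashed) and all genes tested (dotted); ringed points were called. The members' median stands at 0.61 for the compound, 0.62 for compound plus LPS against LPS and 0.38 for the knockout.

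The effect of LPS in compound-treated cells was read from compound plus LPS against compound. Of 36 members 16 were above 0 and 20 below, with a median of -0.14 against -0.06 over all genes. Rrp1b was called lower and none higher, where 11.4% of all genes were called higher and 7.56% lower. With DESeq2 5 of 36 were called, all lower, where 1180 of 10269 genes were called higher and 1286 lower. Groups did not overlap for 2 members upward and 9 downward, against 22.3% and 22.3% of genes.

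Rrp1b (chromosome 17, 32036162 to 32062865) was at 8.95, 12.6 and 7.70 CPM in vehicle, 11.9, 8.43 and 15.5 CPM with the compound, 4.97, 2.25 and 0 CPM with LPS and 5.10, 1.53 and 2.80 CPM with both (log2 -1.88 ± 0.58 against the compound). It was low in every library with LPS, whether or not the compound was given. Rrs1 had the highest fold change, at 36.7, 44.5 and 24.0 CPM with the compound and 75.2, 56.1 and 88.3 CPM with both (log2 1.06 ± 0.43). Ncl (log2 -0.78 ± 0.38), Npm1 (log2 -0.92 ± 0.37) and Nop14 (log2 -0.87 ± 0.34) were lower with both, without overlap with the compound alone. Nob1, lowest with the compound, was at 20.8, 10.4 and 26.1 CPM with both (log2 1.01 ± 0.42).

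Without LPS replicate 3, Rrs1 was called higher and Ncl, Npm1, Dkc1, Nop14 and Rrp1b lower, where 14.6% of genes were called higher and 12.0% lower. The call of Rrp1b was lost without compound plus LPS replicate 2 or 3 or compound replicate 1 or 3, and Nop14 was called lower as well without LPS replicate 2. Of 141 other factors 4 rose and 3 fell, with a median near 0 (-0.00695). Eif6 rose again, from 42.9, 33.4 and 35.2 CPM to 189, 129.6 and 213 CPM (log2 2.25 ± 0.35, adjusted p = 0.00011 by edgeR), with Pum3 (log2 1.19 ± 0.29, adjusted p = 0.0064) and Rpf2 (log2 1.05 ± 0.31, adjusted p = 0.024). Las1l (log2 -1.62 ± 0.48, adjusted p = 0.023), Nol8 (log2 -1.58 ± 0.34, adjusted p = 0.0025) and Ddx55 (log2 -1.20 ± 0.32, adjusted p = 0.012) fell, all by edgeR. These 6 are large subunit factors. The rises numbered 2 without compound plus LPS replicate 1 or any one compound library and 9 without LPS replicate 3. The falls numbered 1 without compound plus LPS replicate 3 or compound replicate 1 and 7 without LPS replicate 3. The split was 3 and 5 with RLE size factors, and 1 and 14 with library totals alone. Myc rose here (log2 2.13 ± 0.52, adjusted p = 0.0067 by edgeR), from 6.62 ± 2.62 to 29.0 ± 14.0 CPM (SD, n = 3), and of the 7 network genes tested 3 rose and 3 fell. Macrophage markers (3561 to 4707 CPM with both, 5149 to 6514 CPM with the compound) and T and NK cell markers (35.96 to 63.8 CPM, 192 to 231 CPM) were lower with both. Neither sum overlapped between these groups on unscaled totals, but on TMM-scaled totals the macrophage sums overlap. The part of these markers was not tested.

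The interaction asks whether LPS changed a gene by a different amount with the compound than without it. No member was called by edgeR in either direction, where 1.39% of genes were called higher and 1.52% lower. DESeq2 called 1 member lower, where it called 377 of 10215 genes higher and 374 lower. An unadjusted p under 0.05 was reached by 4 members. No share of all genes at that threshold stands beside this count, so nothing is read from it. The highest differences were those of Wdr12 (2.58 ± 1.19 on the log2 scale) and Heatr1 (1.79 ± 0.81), and the lowest those of Wdr43 (-1.49 ± 0.48) and Rrs1 (-1.46 ± 0.61). Without LPS replicate 3, Wdr12 was called higher and Wdr43 lower (-1.77 ± 0.41), Heatr1 was at 1.47 ± 0.71 and Rrs1 at -0.77 ± 0.45, where 3.26% of genes were called higher and 4.33% lower. Among the other factors Utp3 was called (-1.72 ± 0.43, adjusted p = 0.039 by edgeR): it was at 118, 133 and 123 CPM in vehicle and 161, 167 and 145 CPM with the compound. Leaving out any single library other than LPS replicate 3 ended its call, while without LPS replicate 3 the other factors called lower numbered 3. Without LPS replicate 1 or 2 there were 2 and 1 called higher.

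In stimulated Irg1-/- macrophages nearly all members were higher than in wild type, by small amounts. Of 33 tested, 32 were above 0 and only Wdr12 below, with a median log2 fold change of 0.38 against 0.01 over all genes. No member was called by edgeR without a block or by DESeq2, and edgeR called 0.0105% of genes higher and 0.0527% lower. An unadjusted p under 0.05 was reached by 13 members. That threshold is not the one of these shares, so nothing is read from this count. Groups did not overlap for 10 members upward and none downward, against 6.13% and 7.23% of genes. Same-numbered libraries deviated together here (correlations between 0.383 and 0.486). With the replicate number as a block 11 members were called higher and none lower, where 2.90% of genes were called higher and 3.36% lower. The block leaves fewer than the 4 residual degrees of freedom of the fit without it. Replicate numbers come from the sample titles, which do not say that same-numbered libraries were paired.

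The 11 were Nolc1, Ddx21, Fbl, Nop56, Nop58, Dkc1, Wdr43, Nop14, Ftsj3, Rrp1b and Mdn1. They hold all 4 tested proteins of snoRNPs and rRNA modification. Nop58 was at 38.9, 41.9 and 36.5 CPM in wild type and 56.9, 92.6 and 57.3 CPM in the knockout (log2 0.82 ± 0.23, 0.78 ± 0.15 with the block). Fbl was at 27.6, 24.0 and 25.4 CPM and 38.4, 40.3 and 34.5 CPM (log2 0.55 ± 0.20, 0.55 ± 0.17). Dkc1 was at 10.3, 12.5 and 7.97 CPM and 16.6, 24.4 and 14.0 CPM (log2 0.84 ± 0.29, 0.83 ± 0.24). For these 3 genes every knockout library lay above every wild-type library.

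Nolc1 was at 35.9, 29.4 and 23.7 CPM in wild type and 48.5, 42.7 and 43.1 CPM in the knockout (log2 0.60 ± 0.21, 0.61 ± 0.16 with the block), without overlap. Ddx21 was at 53.2, 46.0 and 31.6 CPM and 77.0, 85.7 and 50.9 CPM (log2 0.71 ± 0.26, 0.70 ± 0.14), and replicate 3 was the lowest in both groups. Ncl was at 204, 213 and 288 CPM and 253, 222 and 339.7 CPM (log2 0.21 ± 0.22, 0.20 ± 0.10), and Npm1 at 279, 188 and 139 CPM and 297, 229 and 176 CPM (log2 0.22 ± 0.27, 0.24 ± 0.10). Each pair of same-numbered libraries of both genes had the higher value in the knockout, but the groups overlapped and neither was called with the block.

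Wdr43 was at 135, 148 and 119 CPM in wild type and 186, 182 and 155 CPM in the knockout (log2 0.38 ± 0.18, 0.38 ± 0.11 with the block) and Nop14 at 73.1, 77.7 and 63.1 CPM and 104, 93.9 and 86.6 CPM (log2 0.41 ± 0.19, 0.42 ± 0.12). Both small subunit factors were apart between the groups. Rrp1b had the highest fold change without the block, at 7.98, 6.71 and 2.66 CPM and 9.55, 18.0 and 11.1 CPM (log2 1.18 ± 0.41, 1.21 ± 0.32). Mdn1 was at 18.6, 14.7 and 9.29 CPM and 32.8, 29.2 and 17.5 CPM (log2 0.91 ± 0.31, 0.90 ± 0.20), higher in each pair although knockout replicate 3 lay within the wild-type range. Wdr12, the lowest, was at 16.0, 7.67 and 5.53 CPM and 9.36, 9.02 and 7.45 CPM (log2 -0.15 ± 0.38, -0.08 ± 0.31).

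Polr1a was at 14.0, 8.63 and 14.2 CPM in wild type and 24.6, 18.0 and 14.9 CPM in the knockout (log2 0.64 ± 0.28, 0.61 ± 0.23 with the block), without overlap. Polr1b was at 0.665, 1.60 and 0.885 CPM and 0.955, 0.796 and 0.346 CPM. Gnl2 was at 57.5, 53.7 and 53.1 CPM and 55.9, 64.8 and 66.1 CPM (log2 0.19 ± 0.18). Noc2l varied more between replicates than between groups, at 14.3, 37.4 and 60.0 CPM in wild type and 20.8, 37.4 and 84.0 CPM in the knockout (log2 0.34 ± 0.51). Rrs1, at 11.6, 11.2 and 9.52 CPM and 9.74, 10.6 and 20.8 CPM, and Nob1, at 3.66, 3.52 and 9.74 CPM and 5.16, 5.04 and 9.70 CPM, overlapped between the groups.

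**Figure D4:**
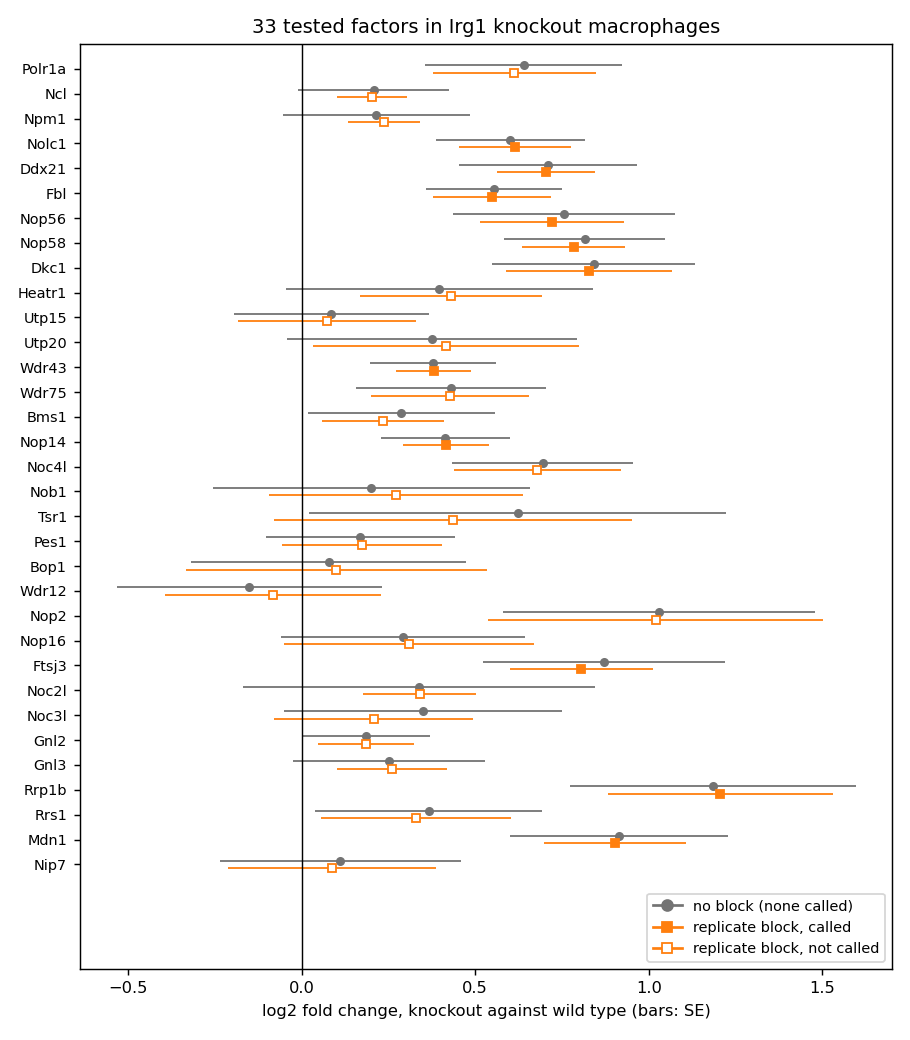
Log2 fold change of the 33 tested members in knockout against wild type with its SE, without a block (grey circles) and with the replicate number as a block (orange squares, filled where called). The estimates barely differ between the fits and 32 of 33 lie above 0, while most error bars are shorter with the block.

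Of the 135 other factors tested in experiment 2, 113 were above 0 with a median of 0.24. None was called by edgeR without a block and none by DESeq2. An unadjusted p under 0.05 was reached by 11, with no share of all genes at that threshold beside it, so nothing is read from this count. With the block 7 rose and none fell: Snu13, Utp25, Nol11, Wdr3, Rcl1, Pdcd11 and Pelp1. The largest of these was Rcl1, a small subunit factor (log2 2.10 ± 0.56, adjusted p = 0.014 by edgeR with the block), higher in all 3 same-numbered pairs. The 72 ribosomal protein genes tested had a median of 0.06. Myc was too low to be tested in experiment 2, at 0.762 ± 0.798 CPM in the knockout and 0.434 ± 0.376 CPM in wild type (SD, n = 3). Proliferation markers summed to 215 ± 21.9 CPM in the knockout and 252 ± 43.7 CPM in wild type (SD, n = 3), so they overlapped between the groups. Macrophage and neutrophil markers overlapped too, while T and NK cell markers, nearly all Il7r, were lower in the knockout (159.9 to 174 CPM) than in wild type (228 to 266 CPM), and their part was not tested.

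The compound adds an itaconate ester and the knockout removes the source of itaconate, and in both the members were mostly higher than in the controls. The experiments share no library. Of the 33 members tested in both, 28 were above 0 in both, 4 in the knockout alone (Fbl, Nob1, Pes1 and Nip7) and 1 with the compound alone (Wdr12). Across these members the fold changes had a Pearson correlation of 0.32 and a Spearman correlation of 0.37, given as a description, since members are not replicates and were chosen on both comparisons. Nolc1, Ddx21, Nop58 and Mdn1 were high on both axes. The compound was given to cells without LPS and the knockout was measured after 24 h of LPS and interferon gamma, so time and stimulus differ between them.

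**Figure D5:**
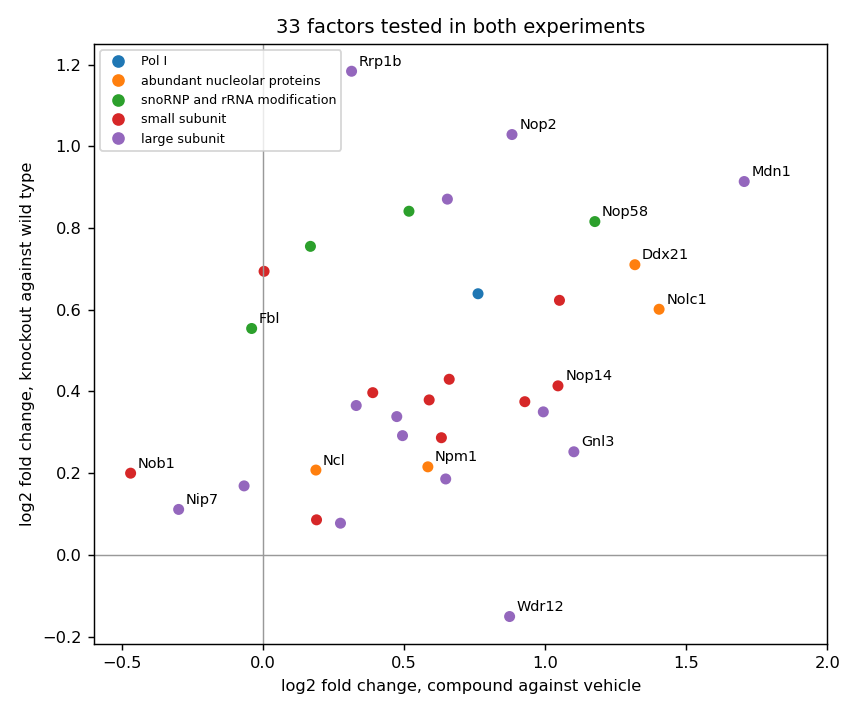
Log2 fold change of the 33 members tested in both experiments, compound against vehicle on the x axis and knockout against wild type on the y axis, coloured by role. The upper right part holds 28 of the 33 members, and Wdr12 is the single point below the horizontal line.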

How the data were processed

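RNA from 18 macrophage libraries was read from the 3′ end, with oligo-dT priming and 12 PCR cycles and without molecular identifiers, per the labels' protocols. The authors deposited raw counts per gene, keyed by Entrez identifier, in 1 table per experiment. The submitters' processing notes name STAR, HTSeq, DESeq2 and mm10 without versions, and the annotation and strand setting are not given in the sources used here. Since amplified copies are not independent molecules, intervals and floors (3 counts) cover counting error only. Depth ranged from 955718 to 7629669 counts per library, so a CPM of a few units rests on few reads in the shallowest.

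From the deposited counts, 23969 of 24052 genes were given a symbol from RefSeq (GRCm38.p6). Genes were filtered with filterByExpr (minimum count 10), which left 10285 genes in experiment 1 and 9491 in experiment 2. Counts were scaled by TMM and fitted with edgeR 4.0.16 in R 4.3.3 (quasi-likelihood test, prior count 0.125). All libraries of an experiment shared the spread, with residual degrees of freedom 8 and 4 without a block and fewer with it. P-values are two-sided with the Benjamini-Hochberg adjustment across all genes tested, and a call means an adjusted p under 0.05. The SE of a log2 fold change is its absolute value divided by the square root of the F statistic of the test. CPM of single genes and the summed levels of the members are computed on TMM-scaled totals. Sums of marker genes are computed on library totals without scaling. Because nothing says that replicates came from separate animals or cultures, p-values measure only the spread between these samples. The fit without a block was run on simulated counts with changes planted in the compound or the knockout group. Those counts held no outlying library and no replicate effect, so the run does not cover the shifts seen with LPS replicate 3 or with the block.

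The 37 members and all gene lists were chosen with earlier results of these data known. Values of every library are given for the 2 members of each role with the highest mean CPM, for the members with the highest and lowest fold change in each comparison, and for some members called in a comparison, added after their values were seen. Of the other factors, at most 3 in each direction with the largest fold change and the same direction in all 3 same-numbered pairs are named. Factors called only with the block and Utp3 in the interaction were named after their values were seen. Same-numbered libraries were checked for shared deviations: all 3 pairs correlated above 0.1 between knockout and wild type (0.383 to 0.486) and between LPS and compound plus LPS (0.121 to 0.210), and 8 of 18 pairs did in experiment 1. Alternatives were DESeq2 1.42.0, RLE factors, library totals, a minimum count of 30, no filter, the 2 groups alone, a replicate block and leaving out each library. Promoter windows were searched with Python 3.11.15.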

Additional observations from a re-analysis of the deposited data

Results flagged for a closer look

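Utp3, a small subunit factor outside the 37 members, responded differently to LPS with and without the compound by the test of the difference itself. The interaction was -1.72 ± 0.43 on the log2 scale (adjusted p = 0.039 by edgeR's quasi-likelihood test). LPS alone raised it (log2 1.09 ± 0.31, adjusted p = 0.01), and it was at 339, 299.7 and 155 CPM with LPS and at 101, 125 and 81.2 CPM with compound plus LPS. The call was lost when any one library other than LPS replicate 3 was left out. Among the members, Wdr43 had a difference of the same direction (-1.49 ± 0.48), which no edgeR fit with all libraries called.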

How the results depend on the processing

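The 13 calls of single members kept their sign under all 19 alternatives each. Of 200 results under settings with all libraries 147 stayed within the bounds set for no change and 53 moved, and of 330 that left out 1 library 254 stayed and 76 moved. Library totals moved the median of all genes to -1.17 (LPS against vehicle), -0.25 (compound), 0.28 (compound plus LPS against LPS), -0.65 (against compound) and 0.52 (interaction). The cause of the shifts below was not tested.

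For LPS against vehicle, members called lower numbered 4 with DESeq2, 17 with totals and 1 with the 2 groups alone, and the members' median was -1.07 with totals. All genes called lower in those fits numbered 2392 of 10269, 4950 of 10285 and 858 of 9341. Other factors called higher numbered 0 with totals and 6 with the 2 groups, and lower 12 with DESeq2, 55 with totals and 2 with the 2 groups. For the compound, members higher numbered 4 with DESeq2, 1 with RLE, 0 with totals, 1 with the stricter filter, 4 without a filter and 8 with the 2 groups. All genes called higher numbered 295 of 10070 with DESeq2, 131 of 10285 with RLE and 72 of 10285 with totals. They numbered 134 of 8612 with the stricter filter, 236 of 14573 without a filter and 557 of 10318 with the 2 groups. Other factors higher numbered 4 with DESeq2, 0 with totals, 2 without a filter and 13 with the 2 groups, and lower 2 with DESeq2, 1 with totals and 2 with the 2 groups.

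For compound plus LPS against LPS, members higher numbered 9 without a filter and 0 with the 2 groups, and lower 2 with DESeq2, 1 without a filter and 1 with the replicate block. All genes higher in those fits numbered 994 of 14573 and 273 of 8575, and all genes lower 1070 of 10269, 885 of 14573 and 678 of 10285. Other factors higher numbered 2 with the 2 groups, and lower 5 with DESeq2, 1 with totals and 1 with the 2 groups. Against the compound, members higher numbered 1 without a filter and 2 with the 2 groups, and lower 5 with DESeq2, 3 with RLE, 8 with totals, 2 without a filter and 5 with the 2 groups, and the median was -0.72 with totals. All genes higher numbered 1191 of 14573 without a filter and 1657 of 9766 with the 2 groups. All genes lower numbered 1286 of 10269 with DESeq2, 1014 of 10285 with RLE and 2027 of 10285 with totals. They numbered 960 of 14573 without a filter and 1539 of 9766 with the 2 groups. Other factors higher numbered 1 with totals and 16 with the 2 groups, and lower 8 with DESeq2, 5 with RLE, 14 with totals, 5 without a filter and 8 with the 2 groups. For the interaction 1 member was lower with DESeq2, where 374 of 10215 genes were. The members' median was 0.16 with totals, and other factors lower numbered 2 with DESeq2, 0 with totals and 2 without a filter. For the knockout the replicate block gave 11 members and 7 other factors higher, and beyond the values given the block moved no count by over 1.5 times.

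Leaving out 1 library gave these ranges. The number of all genes called differed between these fits too, and nothing is read from the counts of members. LPS against vehicle: 2 to 3 members higher, 2 to 4 lower, median -0.26 to -0.0033, other factors 6 to 21 higher and 5 to 12 lower. Compound: 0 to 6 members higher, median 0.53 to 0.74, other factors 0 to 8 higher and 0 to 2 lower. Compound plus LPS against LPS: 0 to 8 members higher, 0 to 1 lower, median 0.52 to 0.81, other factors 4 to 15 higher and 1 to 4 lower. Against the compound: 0 to 1 members higher, 0 to 5 lower, median -0.26 to 0.066, other factors 2 to 9 higher and 1 to 7 lower. Interaction: 0 to 1 members in each direction, median -0.30 to 0.018, other factors 0 to 2 higher and 0 to 3 lower. Knockout: 0 called in each list, median 0.37 to 0.48. Depth limits members of a few counts, such as Polr1b and Wdr12 under LPS.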
